A study of Mus musculus with 6 samples.

Results

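The enzymes of glycolysis and of lactate formation were followed through 32 genes, taken by symbol from the 23183 genes measured in cerebral microvessels of TEKCRIF1 mice. They cover the steps from glucose phosphorylation to lactate, with the isozymes of each step, the PFKFB enzymes that set the activator of phosphofructokinase, the bisphosphoglycerate enzymes, and the fructose bisphosphatases of the reverse path. Both groups were TEK-cre mice on a C57BL/6 background. The 3 WT mice were *Crif1* +/+ and the 3 TEKCRIF1 KO mice were *Crif1* flox/flox. The ages and sexes of these mice were not given in the sources used here. Cre was driven by the Tek promoter, which is active in endothelial cells, so the pericytes, astrocyte processes and other cells that stay attached to microvessels also contribute RNA in which *Crif1* need not be deleted. CRIF1 is a factor of the mitochondrial ribosome, and the comparison asked whether its loss, which impairs respiration, goes with more glycolytic RNA. Every value is an FPKM, the number of fragments per kilobase of transcript scaled to the number of mapped fragments. Values of single libraries are given in the order WT 1, 2 and 3, then KO 1, 2 and 3.

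Glycolysis splits glucose into pyruvate in the cytosol and yields ATP without oxygen, and lactate dehydrogenase then turns pyruvate into lactate while returning NADH to NAD. Several steps have isozymes encoded by separate genes, which differ in tissue, in regulation and in affinity for their substrate. Brain endothelial cells are known to draw much of their ATP from glycolysis, and many glycolytic genes are targets of the hypoxia-inducible factors.

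The estimated depth was 6400000 to 11600000 fragments per library, at which 3 fragments on a 1-kb transcript are worth 0.258 to 0.472 FPKM. This floor covers counting error only. The targeted gene, listed as *Gadd45gip1* (chr8:84831522-84835482, GRCm38), had 15.3 to 18.8 FPKM in WT mice and 7.54 to 10.8 FPKM in KO mice without overlap, a log2 fold change of −0.77 (SE 0.22; limma p = 0.00534, adjusted p = 0.841, exact permutation p = 0.1). In bulk RNA of this kind, fewer cells of a type and less RNA per cell cannot be told apart. The 7 endothelial markers summed to 784 to 1053 FPKM in WT mice and 717 to 947 FPKM in KO mice, and *Cldn5* made up most of this sum. *Cdh5*, the cadherin of endothelial junctions, was the 1 of the 7 without overlap, at 86.7, 92.4 and 91.3 FPKM in WT mice and 50.8, 42.5 and 38.1 FPKM in KO mice (log2 fold change −1.03, SE 0.19; limma p = 3.03e-04, adjusted p = 0.841, exact permutation p = 0.1). Its part in the values of the glycolysis and lactate genes was not tested. The sum of the 3 choroid plexus markers *Ttr*, *Kl* and *Folr1* was 2785 to 3267 FPKM in WT mice, 2898 FPKM in KO 2, and 8674 and 10319 FPKM in KO 1 and KO 3. The file headers of KO 1 and KO 2 lack the hyphen that the other headers have, and what this marks was not given in the sources used here.

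None of the glycolysis and lactate genes passed adjustment over all genes. Of the 32 genes, 29 averaged 1 FPKM or more over the libraries and were tested, and *Pfkfb1*, *Fbp1* and *Fbp2* did not. With limma and Benjamini-Hochberg adjustment over 14247 genes, 0 of the 29 had an adjusted p under 0.05, as did 0% of all genes tested, and the lowest adjusted p among the 29 was 0.841. Before adjustment 1 of the 29, *Pfkp*, had p under 0.05, against 5.88% of all genes. It was higher in KO mice, as were 2.77% of all genes at that threshold, and 0 of the 29 were lower, against 3.11%. The values of KO and WT mice did not overlap for 4 of the 29 (13.8%), against 11.1% of all genes. *Pfkp* and *Hkdc1* were the 2 that were higher in KO mice (5.37% of all genes were), and *Hk2* and *Adpgk* the 2 that were lower (5.7% of all genes were). On the scale of log2(FPKM + 1), the mean was higher in KO mice for 17 of the 29 and lower for 12. Of all 14247 genes, 7007 were higher and 7240 lower. The median log2 fold change, computed throughout on log2(FPKM + 1), was 0.02 over the 29 genes and −0.0062 over all genes. Where both groups are low, this scale understates the ratio.

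The RNA was unevenly spread over the path. *Gapdh* (mean over the 6 libraries 609 FPKM), *Aldoa* (570 FPKM) and *Pkm* (432 FPKM) had the highest levels per length, followed by *Eno1* (301 FPKM), *Ldha* (221 FPKM), *Tpi1* (199 FPKM), *Ldhb* (187 FPKM), *Gpi1* (164 FPKM) and *Pgk1* (146 FPKM). These 9 genes, all above 100 FPKM, held 85.6% of the FPKM of the 32 genes. Among KO mice the SD of each of these genes was larger than its distance to the next gene in this order. That spread runs between mice, and within each library *Aldoa* lay above *Pkm*, *Pkm* above *Eno1* and *Eno1* above *Ldha*. The order of the other neighbours among these genes changed between libraries. The sum over the 32 genes was 3025, 3068 and 3284 FPKM in WT mice and 3729, 2284 and 4440 FPKM in KO mice. KO 2 thus lay below every WT mouse, while KO 1 and KO 3 lay above every one. As a share of all FPKM of a library, the 32 genes made up 0.699%, 0.689% and 0.772% in WT mice and 0.691%, 0.599% and 0.989% in KO mice. On that scale KO 1, whose values summed highest over all genes, lay within the WT range, with KO 2 still below it and KO 3 above it.

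**Figure D1:**
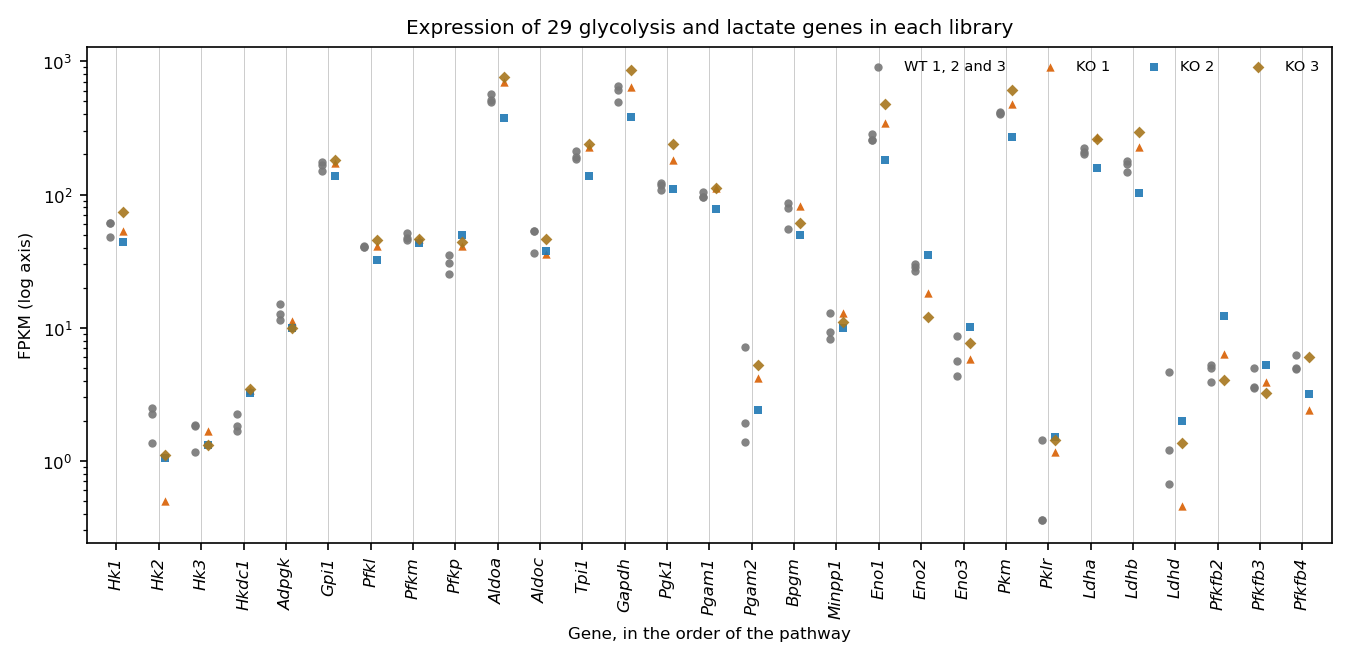
FPKM of the tested glycolysis and lactate genes in each mouse, on a log axis, with the genes in the order of the path. Points are single mice, gray for WT and colored for KO 1, KO 2 and KO 3. The groups overlap for all genes but *Pfkp*, *Hkdc1*, *Hk2* and *Adpgk*.

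The stretches just before the start sites of the 4 genes without overlap and of *Pgk1*, the gene with the highest log2 fold change once KO 2 was left out, are shown because the hypoxia-inducible factors are known to bind the core ACGTG or GCGTG. They were read from RefSeq (GRCm38.p6), 5′ to 3′ on the gene's strand, and stop before the first annotated exon. Capitals mark matches of either motif on either strand.
Hk2, chr6:82774455-82774604, minus strand: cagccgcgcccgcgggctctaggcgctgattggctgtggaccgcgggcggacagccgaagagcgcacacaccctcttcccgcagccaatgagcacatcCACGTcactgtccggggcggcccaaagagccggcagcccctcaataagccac
Hkdc1, chr10:62422492-62422607, minus strand: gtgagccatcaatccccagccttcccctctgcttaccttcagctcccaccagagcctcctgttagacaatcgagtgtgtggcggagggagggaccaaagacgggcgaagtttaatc
Adpgk, chr9:59291422-59291557, plus strand: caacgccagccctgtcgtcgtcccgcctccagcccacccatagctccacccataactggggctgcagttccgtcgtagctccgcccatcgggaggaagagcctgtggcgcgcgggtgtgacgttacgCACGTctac
Pfkp, chr13:6648778-6648921, minus strand: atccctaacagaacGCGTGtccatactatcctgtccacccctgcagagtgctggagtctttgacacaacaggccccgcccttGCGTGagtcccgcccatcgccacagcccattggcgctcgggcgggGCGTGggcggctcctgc
Pgk1, chrX:106186950-106187099, plus strand: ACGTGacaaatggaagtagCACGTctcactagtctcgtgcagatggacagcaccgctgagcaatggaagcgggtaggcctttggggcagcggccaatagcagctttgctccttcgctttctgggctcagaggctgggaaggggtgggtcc
*Pfkp* had 3 matches in this stretch, *Pgk1* 2, *Hk2* and *Adpgk* 1 each, and *Hkdc1* 0. In the full window, from 250 bases before to 50 after the start, at least 1 match was found in 25 of the 32 genes (78.1%), against 46.7% of 27025 genes with a RefSeq promoter. For ACGTG the shares were 50% and 21.8%, and for GCGTG 56.2% and 35.2%. A gene was counted if any of its promoters matched, and the 32 genes had 50 promoters, all 27025 genes 32851. Counted per promoter, the shares were 70% and 43.8% for either motif, 40% and 19.6% for ACGTG, and 48% and 32.4% for GCGTG. All genes here include those not expressed in these libraries. ACGTG and its reverse complement overlap within CACGTG. A match is a description of sequence and not a binding site.

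Glucose is trapped in the cell by hexokinase. Of the 5 genes of this step, *Hk2*, *Hkdc1* and *Adpgk* did not overlap between the groups, as 11.1% of all genes did not, while *Hk1* and *Hk3* overlapped, and 0 of the 5 had an unadjusted limma p under 0.05. *Hk1*, the mitochondria-bound isozyme found in most tissues, held most of the hexokinase RNA, 69.9% to 78.9% in WT mice and 73.8% to 82.6% in KO mice. Its level was 48.1, 61.5 and 61.2 FPKM in WT mice and 53.7, 43.8 and 74.5 FPKM in KO mice, a log2 fold change of −0.016 (SE 0.24; limma adjusted p = 0.994). *Hk2*, the insulin- and hypoxia-responsive isozyme of muscle and fat, had 2.25, 2.50 and 1.35 FPKM in WT mice and 0.498, 1.05 and 1.10 FPKM in KO mice. Every KO mouse lay below every WT mouse, and the ratio of the KO to the WT mean was 0.433 (log2 fold change −0.69, SE 0.36; limma p = 0.0872, adjusted p = 0.841, exact permutation p = 0.1). *Hkdc1*, a hexokinase-like gene next to *Hk1* on chromosome 10, 3228 bases away on the same strand, had 2.23, 1.83 and 1.68 FPKM in WT mice and 3.41, 3.22 and 3.44 FPKM in KO mice. Every KO mouse lay above every WT mouse, with a ratio of 1.75 (log2 fold change 0.58, SE 0.28; limma p = 0.0625, adjusted p = 0.841, exact permutation p = 0.1). Of the RNA of *Hk2* and *Hkdc1* together, *Hkdc1* held 42.3% to 55.4% in WT mice and 75.4% to 87.2% in KO mice. This share restates both genes' values, since the one was higher and the other lower in every KO mouse. *Adpgk*, the kinase that uses ADP instead of ATP, had 15.1, 12.6 and 11.5 FPKM in WT mice and 11.3, 9.94 and 9.86 FPKM in KO mice. The gap between the groups was narrow (log2 fold change −0.30, SE 0.21; limma p = 0.172, adjusted p = 0.851, exact permutation p = 0.1). *Hk3*, the isozyme of white blood cells, was between 1.17 and 1.86 FPKM in all mice, with overlapping groups. *Gpi1*, which turns glucose phosphate into fructose phosphate, had means of 164 ± 12.6 FPKM in WT and 164 ± 23.9 FPKM in KO mice (SD, n = 3 mice a group).

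Phosphofructokinase is the committed and most regulated step of glycolysis. Of 14 steps or groups of enzymes it was the 1 whose summed RNA did not overlap between the groups, beside 11.1% of single genes, and the gap was narrow. The sum of *Pfkl*, *Pfkm* and *Pfkp* was 117, 123 and 117 FPKM in WT mice and 129, 126 and 136 FPKM in KO mice. *Pfkp*, the platelet-type isozyme (chr13:6579768-6648777, minus strand), had 25.4, 35.1 and 30.7 FPKM in WT mice and 41.4, 49.7 and 44.1 FPKM in KO mice. The KO mean of 45.1 ± 4.25 FPKM was 1.48 times the WT mean of 30.4 ± 4.88 FPKM (SD, n = 3 mice a group) and the means lay further apart than both SDs. The log2 fold change was 0.56 (SE 0.20; limma p = 0.0183, adjusted p = 0.841, exact permutation p = 0.1, the smallest that 3 mice against 3 allow). It was 0.44 without WT 1 (limma unadjusted p = 0.0863, with no exact permutation test run on this subset). *Pfkm*, the muscle-type isozyme, had 51.6, 47.0 and 45.9 FPKM in WT mice and 46.4, 43.5 and 46.6 FPKM in KO mice. *Pfkl*, the liver-type isozyme, had 40.1, 41.2 and 40.4 FPKM in WT mice and 40.8, 32.5 and 45.5 FPKM in KO mice. Both overlapped between the groups. As a share of the step, *Pfkp* made up 25.5% ± 3.46 among WT mice and 34.7% ± 4.19 among KO mice (SD), and the shares of *Pfkl* and *Pfkm* were lower in every KO mouse than in every WT mouse. Because shares sum to 100%, these are not independent of the *Pfkp* value. *Pfkp* shares 748 of its 13401 exon bases with *Pitrm1* on the opposite strand, and whether counting used strand was not given in the sources used here. *Pitrm1* had 11.1 to 17.5 FPKM in WT mice and 9.65 to 17.6 FPKM in KO mice.

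**Figure D2:**
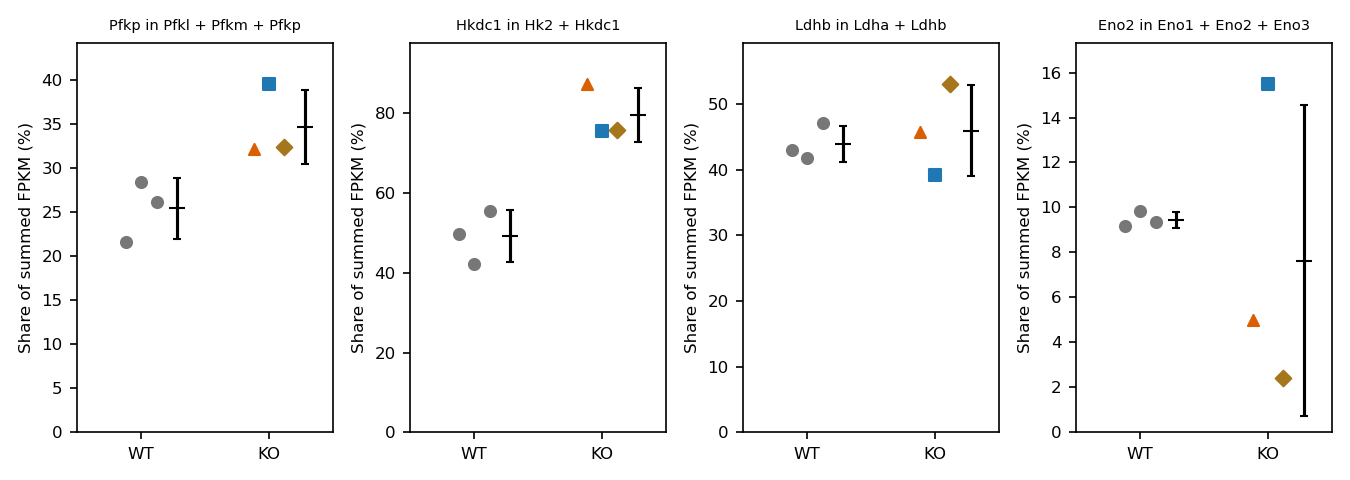
Share of an isozyme in the summed FPKM of the genes named above each panel, in percent, for single mice (gray, WT; triangle, square and diamond, KO 1, KO 2 and KO 3), with the mean and SD of each group. The share of *Pfkp* is higher in every KO mouse (32.2% to 39.6%) than in every WT mouse (21.7% to 28.5%), as is the share of *Hkdc1* in *Hk2* plus *Hkdc1*, which follows from the values of both genes. The shares of *Ldhb* and *Eno2* overlap.

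The PFKFB enzymes make and break down the sugar phosphate that activates phosphofructokinase. *Pfkfb2* had 4.97, 3.91 and 5.27 FPKM in WT mice and 6.34, 12.2 and 4.02 FPKM in KO mice, with KO 2 highest and KO 3 within the WT range. *Pfkfb4* had 6.21, 4.93 and 4.96 FPKM in WT mice and 2.41, 3.17 and 5.99 FPKM in KO mice. *Pfkfb3*, the isozyme linked to endothelial sprouting, was between 3.25 and 5.29 FPKM in all mice, with a log2 fold change of 0.021 (SE 0.27; limma adjusted p = 0.994). *Pfkfb1* was at 0 to 0.892 FPKM and was not tested. The fructose bisphosphatases *Fbp1* and *Fbp2*, which run the step in reverse, were each under the floor of 3 fragments in 4 of the 6 libraries.

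The abundant enzymes in the middle of the path overlapped between the groups, and the KO mice spread more widely than the WT mice. *Aldoa*, the aldolase of most tissues, had 499, 515 and 572 FPKM in WT mice and 696, 373 and 764 FPKM in KO mice. *Gapdh*, which makes the first NADH of the path, had 499, 610 and 654 FPKM in WT mice and 646, 380 and 868 FPKM in KO mice. The KO means exceeded the WT means by less than the KO SD for both genes, with log2 fold changes of 0.14 (SE 0.31; limma adjusted p = 0.963) and 0.034 (SE 0.33; limma adjusted p = 0.993). The value of *Gapdh* is uncertain because 41 near-identical copies, at least 95% identical over at least 300 bases, lie in the genome, 39 of them annotated as pseudogenes. *Tpi1* had 191, 185 and 211 FPKM in WT mice and 229, 137 and 241 FPKM in KO mice. *Pgk1*, the first enzyme of the path to make ATP, had 121, 108 and 118 FPKM in WT mice and 183, 109 and 238 FPKM in KO mice. KO 1 and KO 3 lay above the WT mice, and KO 2 lay among them. Its ratio of 1.53 was the largest among the 9 abundant genes (log2 fold change 0.54, SE 0.28; limma p = 0.0836, adjusted p = 0.841, exact permutation p = 0.3), and 4 near-identical copies make it uncertain. The same limit holds for *Eno1* and *Ldha*, with 3 copies each, and for *Gpi1*, *Tpi1*, *Pgam1*, *Minpp1*, *Pkm* and *Ldhb*, with 1 each. Of all these copies, the *Gapdh* copy *Gm12070* had values of its own of up to 27.8 FPKM, and the *Eno1* copy *Eno1b* of up to 8.31 FPKM. *Pgam1* had 95.2, 95.4 and 104 FPKM in WT mice and 112, 78.1 and 112 FPKM in KO mice. *Aldoc*, the brain aldolase known from astrocytes, had 53.1, 36.2 and 52.9 FPKM in WT mice and 35.5, 37.9 and 46.2 FPKM in KO mice, with overlap. The 6 astrocyte markers, none of them at 0, summed to 575 to 671 FPKM in WT mice and 431 to 477 FPKM in KO mice, with 6 of 6 lower in the KO mean. Their part in the *Aldoc* value was not tested. *Bpgm*, which makes the bisphosphoglycerate that loosens oxygen from hemoglobin in red cells, had 85.8, 55.5 and 79.7 FPKM in WT mice and 82.0, 49.3 and 61.3 FPKM in KO mice. The 4 erythroid markers summed to 1765 to 2425 FPKM in WT mice and 1209 to 2341 FPKM in KO mice, with *Hbb-bs* at 0 in 4 libraries. All 4 were lower in the KO mean FPKM, but *Hba-a2* was under the floor in 3 libraries and its WT mean rests on WT 2 (255 FPKM). On log2(FPKM + 1) *Hba-a2* was higher in KO mice (log2 fold change 0.92) and the other 3 were lower. The part of the erythroid markers in the *Bpgm* value was not tested.

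The last steps make pyruvate and lactate. *Eno1*, the enolase of most tissues, had 256, 258 and 284 FPKM in WT mice and 344, 183 and 479 FPKM in KO mice, and *Pkm*, which makes the last ATP of the path, had 410, 404 and 418 FPKM in WT mice and 478, 271 and 610 FPKM in KO mice. *Ldha*, the subunit that favours lactate formation, had 225, 207 and 203 FPKM in WT mice and 270, 159 and 262 FPKM in KO mice. *Ldhb*, the subunit that favours lactate use, had 169, 149 and 180 FPKM in WT mice and 227, 102 and 295 FPKM in KO mice. In each of these KO 2 lay below and KO 1 and KO 3 above every WT mouse, and the log2 fold changes were 0.23, 0.064, 0.084 and 0.20 (SE 0.25 to 0.35; limma adjusted p from 0.949 to 0.986). *Ldhb* made up 41.8% to 47.0% of *Ldha* and *Ldhb* together in WT mice and 39.1% to 53.0% in KO mice, with overlap. *Eno2*, the neuronal enolase, had 26.7, 28.7 and 30.0 FPKM in WT mice and 18.4, 35.4 and 12.1 FPKM in KO mice, the opposite order, with KO 2 above and KO 1 and KO 3 below every WT mouse. The 7 neuron markers, none of them at 0, summed to 207 to 435 FPKM in WT mice, to 193 FPKM in KO 1, 150 FPKM in KO 3 and 362 FPKM in KO 2, with 6 of 7 lower in the KO mean. Their part in the *Eno2* value was not tested. *Ldhd*, which acts on D-lactate, had 0.675 to 4.63 FPKM in WT mice and 0.458 to 1.98 FPKM in KO mice, and 2246 of its 5328 exon bases overlap *Znrf1* on the opposite strand. The remaining minor isozymes were low and overlapped between the groups, *Pgam2* at 1.38 to 7.15 FPKM, *Minpp1* at 8.19 to 12.9 FPKM, *Eno3* at 4.34 to 10.1 FPKM and *Pklr* at 0.358 to 1.51 FPKM over the 6 mice.

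**Figure D3:**
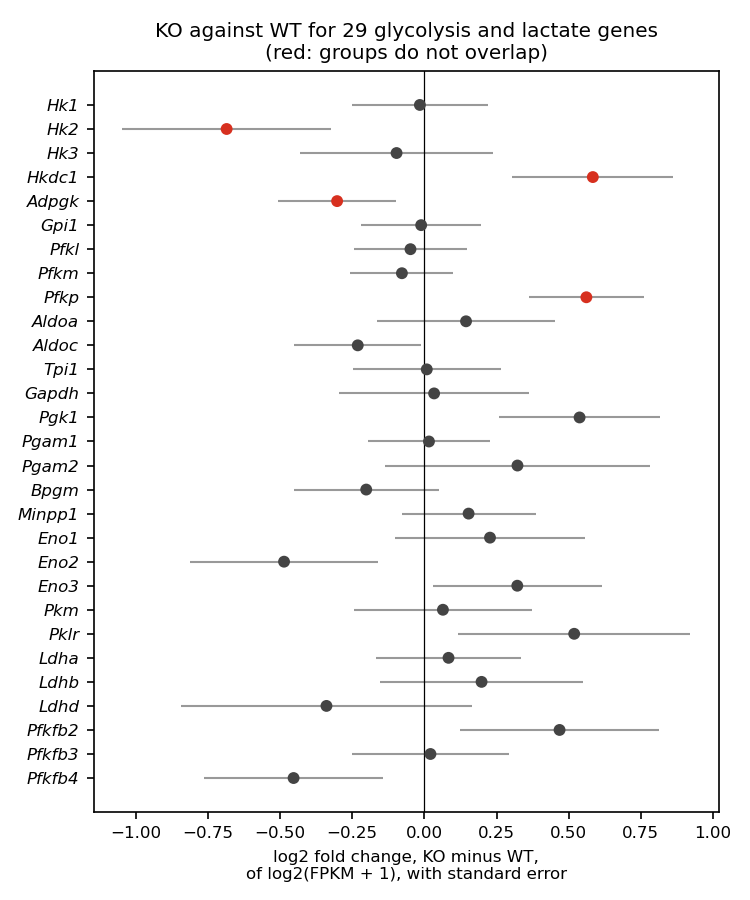
Log2 fold change, KO minus WT on log2(FPKM + 1), with SE, for the 29 tested glycolysis and lactate genes in the order of the path, red where the groups did not overlap. The values range from −0.69 (*Hk2*) to 0.58 (*Hkdc1*) around a median of 0.02.

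The KO libraries differed among themselves. The pattern of KO 2 below and KO 1 and KO 3 above every WT mouse held for 7 of the 29 genes (24.1%), *Aldoa*, *Tpi1*, *Pgam1*, *Eno1*, *Pkm*, *Ldha* and *Ldhb*, against 5.85% of all genes. Among genes averaging 100 FPKM or more it held for 6 of the 9 glycolysis and lactate genes (66.7%) and 182 of all 605 (30.1%). The median difference from the WT mean of the 9 was 0.35 in KO 1, −0.51 in KO 2 and 0.57 in KO 3 on the log2 scale, and that of all 605 was 0.26, −0.38 and 0.12. *Eno2* had the inverse pattern, as 3.83% of all genes did. Transcript length was that of the longest annotated transcript, which need not be the form measured. Over the 29 genes, the Spearman correlation of the difference from the WT mean with this length was −0.440 for KO 1, 0.264 for KO 2 and −0.466 for KO 3. The WT mice gave −0.117, 0.478 and −0.249, so WT 2 had a larger value than KO 2. Over all genes it was −0.245, 0.228 and −0.140 in the KO mice and between −0.023 and 0.015 in the WT mice. These are descriptions across genes, which are not independent replicates. After each library was corrected for trends on length and GC content, the pattern held for 8 of the 29 genes (27.6%), against 5.51% of the 13726 genes with an annotated length. It then held for 7 of the 9 abundant genes (77.8%) and for 123 of all 589 genes of that level (20.9%). The medians were 0.28, −0.26 and 0.56 for the 9 and 0.11, −0.29 and 0.080 for the 589. The choroid plexus markers, given above, were high in KO 1 and KO 3, and their part in these values was not tested.

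**Figure D4:**
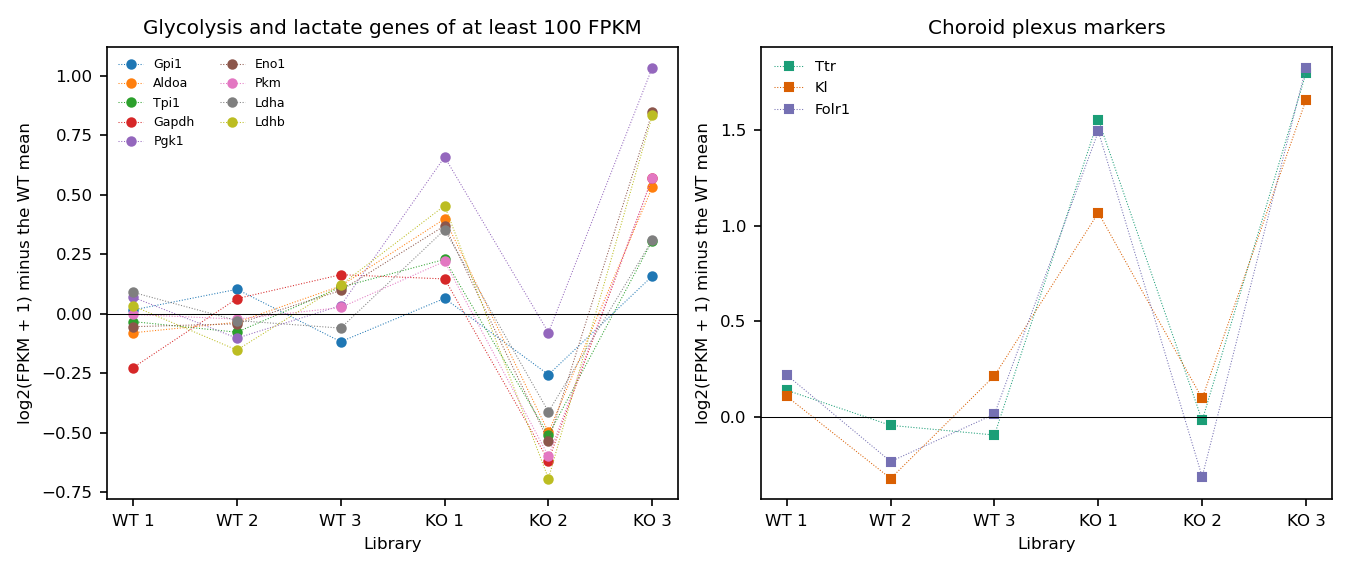
Difference of each library from the WT mean, on log2(FPKM + 1), for the 9 glycolysis and lactate genes averaging at least 100 FPKM (left) and for the 3 choroid plexus markers (right). Dotted lines only join the values of a gene. In KO 2, 8 of the 9 had the lowest value of the 6 libraries, as did 419 of all 605 genes of that level (69.3%).

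**Figure D5:**
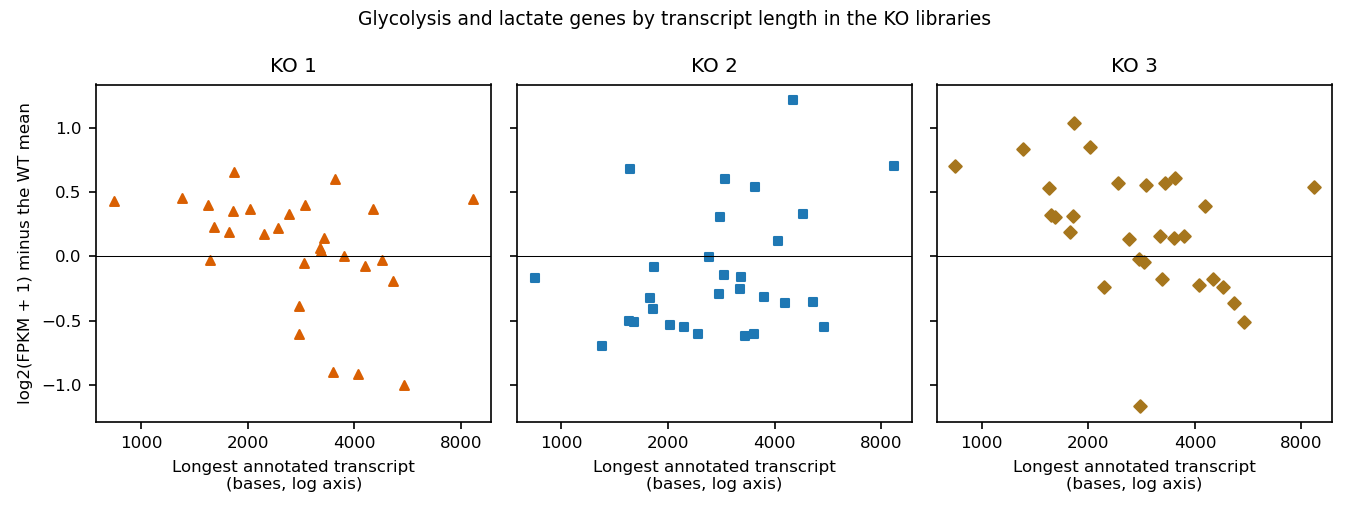
Difference from the WT mean, on log2(FPKM + 1), against the length of the longest annotated transcript in bases (log axis) for the 29 tested genes, 1 panel per KO library. For *Gapdh* that transcript has 1 exon and 3289 bases. Longer genes lie lower in KO 1 and KO 3 and higher in KO 2 (Spearman rho −0.440, −0.466 and 0.264).

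Leaving out KO 2 changed the counts. Of the 29 genes, 8 then had an unadjusted limma p under 0.05, against 13.1% of all genes, and 0 passed adjustment, against 0.0281% of all genes. They were 7 higher, against 7.31%, and 1 lower, against 5.83%. Higher in KO mice were *Pgk1* (log2 fold change 0.85), *Ldhb* (0.64), *Eno1* (0.61), *Pfkp* (0.49), *Aldoa* (0.47), *Pkm* (0.40) and *Ldha* (0.33), and *Eno2* was lower (−0.88). *Ldhb*, *Eno1*, *Aldoa*, *Pkm*, *Ldha* and, inversely, *Eno2* are genes of the KO 2 pattern described before. Leaving out KO 2 removes the overlap of their groups by construction. Among all genes averaging 100 FPKM or more, 30.1% had KO 2 below and KO 1 and KO 3 above every WT mouse. The median of the 29 genes without KO 2 was 0.16. In the same comparison all 3 choroid plexus markers had an unadjusted limma p under 0.05 and were higher in KO mice, with a median log2 fold change of 1.66, and *Ttr* was 1 of the 4 genes that passed adjustment. Markers of other cells had a median of −0.64 for neurons (2 of 7 lower at that threshold), −0.59 for oligodendrocytes (2 of 5 lower), −0.48 for astrocytes (2 of 6 lower) and 0.76 for smooth muscle (0 of 4 at that threshold). The median was 0.0024 for endothelial cells (1 of 7 lower), −0.31 for pericytes (0 of 6) and −0.26 for erythroid cells (0 of 4). It was −0.22 for microglia and macrophages (1 of 5 lower) and −0.17 for fibroblasts (1 of 4 lower). The part of these marker lists in the values of the glycolysis and lactate genes was not tested. With KO 3 left out instead, the log2 fold change was 0.29 for *Pgk1*, 0.57 for *Pfkp* and −0.15 for *Eno2*. It was negative for *Ldhb*, *Eno1*, *Aldoa*, *Pkm* and *Ldha*.

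The neighbouring paths were described by lists of transporters, pyruvate entry, pentose phosphate, NADH shuttle, glycogen and serine branch genes, regulators of glycolysis, other targets of the hypoxia-inducible factors, and isozymes outside the list. 0 of the 81 tested genes of these lists passed adjustment with limma, 5 had an unadjusted p under 0.05, against 5.88% of all genes, and 7 (8.64%) did not overlap between the groups, against 11.1% of all genes. Both shares lie near those of all genes. Of the 10 transporter genes tested, *Emb*, a partner of lactate transporters, had 18.3, 14.4 and 19.9 FPKM in WT mice and 31.5, 18.4 and 37.7 FPKM in KO mice (log2 fold change 0.66; limma adjusted p = 0.841), and the groups overlapped. Of the 10 NADH shuttle genes, *Slc25a13*, a mitochondrial aspartate and glutamate carrier, had 1.74, 2.03 and 2.44 FPKM in WT mice and 2.92, 4.85 and 8.41 FPKM in KO mice, with every KO mouse above every WT mouse (log2 fold change 0.97, SE 0.35; limma p = 0.0189, adjusted p = 0.841, exact permutation p = 0.1). Of the 13 regulators, *Klf2*, a flow-responsive repressor of endothelial glycolysis, had 58.2, 48.5 and 40.5 FPKM in WT mice and 30.8, 31.0 and 29.8 FPKM in KO mice (log2 fold change −0.65, SE 0.20; limma p = 0.00822, adjusted p = 0.841, exact permutation p = 0.1). *Trp53* had 25.8, 34.9 and 26.6 FPKM in WT mice and 23.0, 17.7 and 16.3 FPKM in KO mice, and *Hif1a* had 18.7, 20.5 and 16.6 FPKM in WT mice and 25.2, 21.4 and 31.1 FPKM in KO mice. Neither overlapped between the groups (limma p = 0.0212 and 0.0581, both with exact permutation p = 0.1). Of the 12 other targets of the hypoxia-inducible factors, *Vegfa*, the vascular growth factor, had 24.4, 19.0 and 17.9 FPKM in WT mice and 28.9, 30.3 and 25.6 FPKM in KO mice, without overlap (log2 fold change 0.46, SE 0.20; limma p = 0.0458, adjusted p = 0.841, exact permutation p = 0.1). In the pentose phosphate and serine lists, *Taldo1* (67.4, 79.9 and 71.9 against 63.7, 52.6 and 57.5 FPKM) and *Shmt2* (14.0, 15.3 and 15.2 against 9.23, 11.7 and 13.7 FPKM) were lower in every KO mouse than in every WT mouse, with limma adjusted p of 0.841 and 0.848. Pyruvate entry (12 genes), glycogen (9 genes) and the isozymes outside the list (3 tested) had 0 genes with an unadjusted limma p under 0.05 and 0 without overlap.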

How the data were processed

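Cerebral microvessel RNA of both genotypes was sequenced as paired ends, 3 libraries each. Per the submitters' processing notes and the methods, trimmed reads were mapped with TopHat to mm10, and the authors deposited FPKM values. Per the methods, the libraries were made with a directional RNA-Seq kit. The annotation and the counter, and whether counting used strand, were not given in the sources used here. The count-based test of the study was not used, because counts were not used here. FPKM values were analysed as log2(FPKM + 1) with limma 3.58.1 (trended variance) in R 4.3.3, for the 14247 genes that averaged 1 FPKM or more, and adjusted over them by the Benjamini-Hochberg method. Groups came from the genotype labels. Exact two-sided permutation tests of single genes cannot go below 0.1 here. Depth was estimated from the spacing of FPKM values under 0.3. Length, GC content and coordinates came from the longest transcript in GENCODE M21 (GRCm38), and promoters from RefSeq (GRCm38.p6). Near-identical copies were found with BLAST 2.17.0. Alternatives were no filter, a filter at 5 FPKM, unweighted trimmed-mean (TMM) scaling, quantile normalization, a pseudocount of 0.1, a length and GC correction (loess span 0.3), a replicate block, and leaving out each library. Members described in full were those with the highest mean FPKM of a step, those with an unadjusted p under 0.05 and those whose groups did not overlap. The members and lists were chosen with earlier results of these data known.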

Additional observations from a re-analysis of the deposited data

How the results depend on the processing

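Of 195 values of single genes under the settings that kept all libraries, 182 kept their direction and their side of the threshold, 4 came under an unadjusted p of 0.05 and 9 reversed. With trends on length and GC content removed, *Hk1* moved to 0.14, *Hk3* to 0.049, *Gpi1* to 0.043, *Pfkl* to 0.11 and *Pfkm* to 0.014, and with quantile normalization *Tpi1* moved to −0.087, *Pgam1* to −0.024, *Pkm* to −0.030 and *Ldha* to −0.037. These values lie near 0 on the log2 scale, and the cause was not tested. Of 174 values with a library left out, 133 kept both, 10 became stronger, 1 weaker and 30 reversed. The ranges of the reversed genes were −0.22 to 0.16 for *Hk1*, −0.096 to 0.11 for *Gpi1*, −0.15 to 0.084 for *Pfkl*, −0.050 to 0.47 for *Aldoa*, −0.14 to 0.27 for *Tpi1*, −0.24 to 0.36 for *Gapdh*, −0.070 to 0.19 for *Pgam1*, −0.023 to 0.87 for *Pgam2*, −0.083 to 0.61 for *Eno1*, −0.19 to 0.40 for *Pkm*, −0.051 to 0.33 for *Ldha*, −0.12 to 0.64 for *Ldhb*, −0.70 to 0.18 for *Ldhd* and −0.13 to 0.15 for *Pfkfb3*.

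The number of glycolysis and lactate genes with an unadjusted limma p under 0.05 was 3 without a filter (*Hk2*, *Hkdc1* and *Pfkp*; 5.12% of all genes), 2 with quantile normalization (6.51%), 2 with the length and GC correction (4.95%), and between 1 and 8 with a library left out, 8 without KO 2 and 3 without KO 3 (6.97% of all genes). Over all genes it was 450 to 1871 with a library left out, 450 without WT 2, 510 without KO 1 and 1871 without KO 2. Adjusted, 1 gene passed without a filter and 0 to 4 with a library left out, 4 without KO 2, 4 without KO 3 and 1 without WT 3. Without WT 1 *Pfkp* no longer had an unadjusted p under 0.05, and *Pgam2* did. The *Gadd45gip1* log2 fold change lay between −0.86 and −0.62. The median of the glycolysis and lactate genes lay between −0.10 and 0.16. With the replicate number as a block, 871 genes had an unadjusted p under 0.05 and 0 an adjusted one, and the same 1 glycolysis gene, *Pfkp*, passed. Same-numbered libraries correlated at 0.0375, 0.0267 and 0.0016, and the numbers were not taken as pairs. The block changed no call among the glycolysis and lactate genes or for *Gadd45gip1*. The groups had 3 mice each, and FPKM without counts limits what depth can show.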
